A study of Mus musculus with 4 samples.

Results

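Transcripts of 10 genes of the nuclear lamina and the high mobility group (HMG) proteins were measured by RNA-seq in cultures of primary mouse embryo fibroblasts. They were chosen by symbol, 10 of the 23235 symbols in each deposited table, as a set built around markers of cellular senescence. They comprise the lamin genes Lmnb1, Lmnb2 and Lmna, the inner nuclear membrane genes Lbr, Tmpo and Emd, and the HMG genes Hmgb1, Hmgb2, Hmga1 and Hmga2. Each of the 4 genotypes had 1 library. The libraries were labelled G3 Gadd45-/-Terc-/- (dKO), G3 Terc-/-, Gadd45-/- and wild type, all of the C57BL/6 strain, and the design text gives the first deleted gene as Gadd45a. Terc encodes the RNA template of telomerase, and G3 marks a generation of Terc-deficient breeding in which telomeres have shortened. Embryo age, passage number and the number of embryos behind each culture are not given in the sources used here.

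The nuclear lamina is a meshwork of lamin filaments under the inner nuclear membrane that shapes the nucleus and anchors silent chromatin. B-type lamins stay attached to the membrane through a lipid group, and membrane proteins such as the lamin B receptor tie the meshwork to chromatin. HMGB proteins bind and bend DNA with little sequence preference, and HMGA proteins also bind DNA. Loss of lamin B1 and loss of HMGB2 are widely used markers of senescent fibroblasts, while HMGA proteins were described as components of senescence-associated chromatin foci in human fibroblasts.

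Estimated depth was 19500000 to 19900000 fragments per library. Values are FPKM as deposited, and a difference is one of log2(FPKM + 1), called higher or lower at 1 or more or at -1 or less, a 2-fold step of FPKM + 1. No genotype had a second culture, so no test was possible and every difference is between single cultures. The Gadd45a transcript went against the labels, at 45.1 FPKM in the library labelled dKO and 33.9 FPKM in the library labelled Gadd45-/-, against 31.4 FPKM in the library labelled G3 Terc-/- and 22.9 FPKM in wild type, so dKO, G3 Terc-/- and Gadd45-/- below stand for the libraries so labelled. Terc was listed at 0 in both G3 libraries and at 0.26 and 0.53 FPKM in the library labelled Gadd45-/- and in wild type. Y-linked Ddx3y stood at 16.4 FPKM in the library labelled Gadd45-/- and at 0.023 FPKM or less elsewhere, and Xist at 0.15 FPKM there and at 24.0 to 34.1 FPKM elsewhere. Sex thus differed along with the label in comparisons that use it. All 7 fibroblast markers were detected, with a summed level of 10710 FPKM in dKO, 6409 FPKM in G3 Terc-/-, 11606 FPKM in Gadd45-/- and 11112 FPKM in wild type. All endothelial, skeletal muscle and erythroid markers lay below 1 FPKM in every library, summing to at most 1.49, 0.36 and 0.28 FPKM, and Pecam1, Myf5 and Hbb-b1, one defining marker of each, were at 0.05 FPKM or less. Epithelial markers summed to 17.8 FPKM in dKO, 9.04 FPKM in G3 Terc-/-, 17.0 FPKM in Gadd45-/- and 21.2 FPKM in wild type. Most of this came from Krt19, at 15.9, 7.37, 14.3 and 11.96 FPKM in the same order of libraries. Krt18 stood at 1.22, 1.48, 2.09 and 5.52 FPKM and Krt8 at 0.63, 0.063, 0.53 and 3.04 FPKM. Epcam and Cdh1 were at 0.11 FPKM or less. Leukocyte markers summed to 15.6, 5.55, 4.93 and 4.32 FPKM in the same order of libraries, with Ptprc at 0.08 FPKM or less. Of the leukocyte sum in dKO, Lyz2 gave 11.5 FPKM, and every leukocyte marker listed was highest in dKO. Cd68 stood at 2.74, 2.21, 1.99 and 1.72 FPKM and Itgam at 0.112, 0.034, 0.034 and 0.034 FPKM in the same order. Neural markers summed to 102, 44.7, 55.4 and 55.5 FPKM in that order, mostly from Tubb3 and Nes, and hepatic markers to 0.027, 0.33, 0.027 and 6.44 FPKM, of which Alb gave 5.40 FPKM in wild type. The part of these markers in the results was not tested.

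The library labelled G3 Terc-/- had the lowest level of 9 of the 10 genes, and all 10 were lower there than in wild type. By the size rule 6 were lower and none higher: Lmnb1, Hmgb2, Hmgb1, Lbr, Tmpo and Lmnb2, in order of size. Over all symbols compared, 3.33% were lower and 5.7% higher by the same rule, and among the 11589 with a mean of 1 FPKM or more, which include all 10 genes, 6.25% were lower and 9.93% higher. The median difference of the 10 genes was -1.33, and that of those 11589 symbols was 0.0060. In the library labelled dKO 8 of the 10 genes stood between the G3 Terc-/- and wild-type levels, and only Lmnb1 passed the rule as higher than in G3 Terc-/-. The share of all symbols lowest in G3 Terc-/-, or with dKO between those levels, was not computed, so these counts of order have no background.

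**Figure D1:**
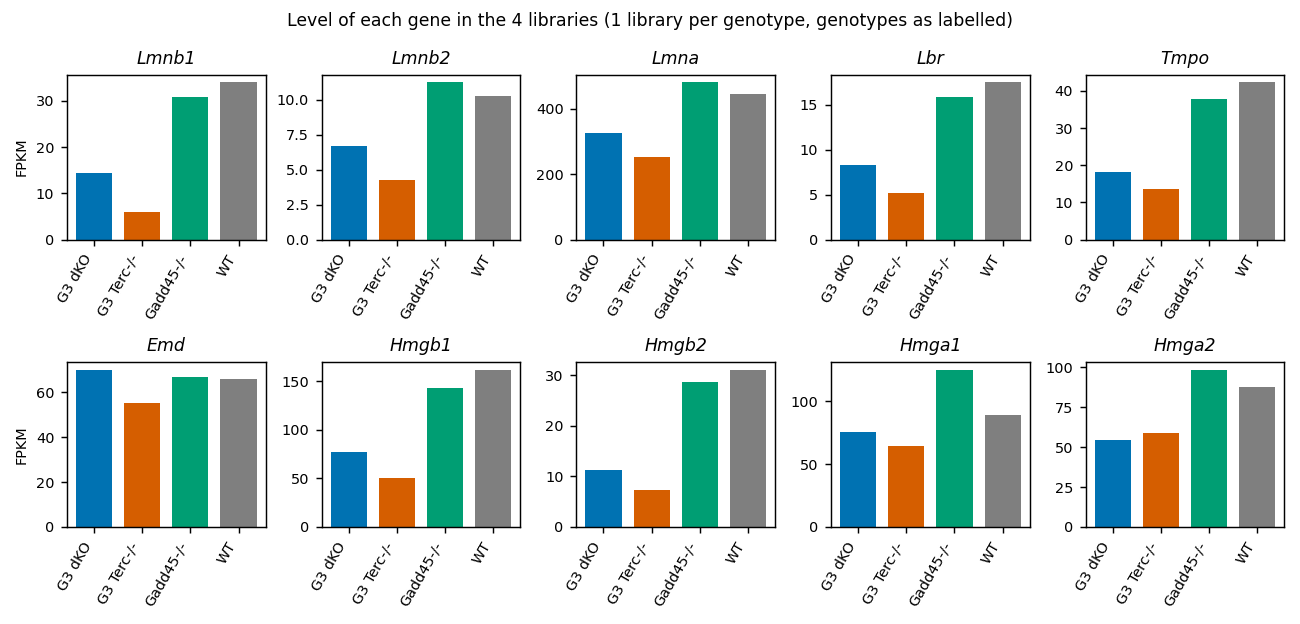
FPKM of each gene (bars, axis from 0, own scale per panel) in the libraries labelled G3 dKO, G3 Terc-/-, Gadd45-/- and WT, 1 library each. The orange G3 Terc-/- bar is the lowest in 9 of 10 panels, and Emd varies least, from 55.1 to 70.1 FPKM.

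Sequence upstream of these genes is shown because several of them differed side by side. RefSeq windows of 300 bases, 250 before to 50 after an annotated start on build GRCm38.p6, were used for 9 of the 10 genes, with 14 windows in all. Lmnb1 is missing: windows on its chromosome, 18, were left out for the 10 genes, a filter not applied to the background. These are printed 5′ to 3′ on the gene's strand. Capitals mark TTTGAA, the cell cycle genes homology region (CHR) that MuvB complexes recognise, and CCAAT, the box bound by NF-Y, each searched on both strands. Windows are shown for Hmgb2 (chr8:57511593-57511892, plus strand), Lbr (chr1:181842352-181842651, minus strand), the more upstream of the pair listed for Hmgb1 (chr5:149053008-149053307, minus strand), and, as a gene whose level hardly differed, Emd (chrX:74254437-74254736, plus strand).
Hmgb2: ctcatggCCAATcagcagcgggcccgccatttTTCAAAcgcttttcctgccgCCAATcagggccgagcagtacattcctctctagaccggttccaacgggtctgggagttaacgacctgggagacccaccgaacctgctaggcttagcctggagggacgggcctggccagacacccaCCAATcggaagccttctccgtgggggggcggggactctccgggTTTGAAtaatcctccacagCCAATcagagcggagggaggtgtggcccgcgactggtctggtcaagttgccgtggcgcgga
Lbr: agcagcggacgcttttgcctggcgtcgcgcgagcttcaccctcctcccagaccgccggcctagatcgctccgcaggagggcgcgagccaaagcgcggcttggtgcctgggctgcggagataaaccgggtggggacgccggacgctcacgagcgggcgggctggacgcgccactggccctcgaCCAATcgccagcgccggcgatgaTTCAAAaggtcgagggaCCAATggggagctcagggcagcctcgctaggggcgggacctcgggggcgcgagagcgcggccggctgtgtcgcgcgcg
Hmgb1: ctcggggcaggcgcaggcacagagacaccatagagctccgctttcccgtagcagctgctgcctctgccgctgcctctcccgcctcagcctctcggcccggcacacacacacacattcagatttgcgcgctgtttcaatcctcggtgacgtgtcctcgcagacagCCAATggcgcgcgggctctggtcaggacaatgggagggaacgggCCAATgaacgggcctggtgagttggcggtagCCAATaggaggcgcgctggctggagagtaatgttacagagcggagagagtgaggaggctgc
Emd: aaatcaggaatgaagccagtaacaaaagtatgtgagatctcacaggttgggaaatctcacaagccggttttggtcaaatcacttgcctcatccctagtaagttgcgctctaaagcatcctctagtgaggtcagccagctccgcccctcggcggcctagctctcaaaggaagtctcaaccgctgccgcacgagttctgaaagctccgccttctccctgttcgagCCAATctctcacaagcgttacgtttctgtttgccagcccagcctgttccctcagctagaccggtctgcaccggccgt

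The Hmgb2 window held 2 CHR matches and 4 CCAAT boxes, none overlapping. Lbr had 1 CHR match between 2 CCAAT boxes, the Hmgb1 window shown had 3 CCAAT boxes and no CHR match, and Emd had 1 CCAAT box, as did one window of Lmna. Tmpo, which is not printed, had a CHR match and the only match to the E2F-type letters TTTNGCGC in one window, and 2 CCAAT boxes in another. The windows of Lmnb2, Hmga1 and Hmga2 held none of these letters. Neither did the Hmgb1 window that is not printed, nor the other window of Lmna. Over the 14 windows, 21.4% held a CHR match and 42.9% a CCAAT box, against 17.9% and 37.4% of all 32851 windows of this length, so as a group they were close to the background. The E2F-type letters stood in 7.14% of the 14 windows, which is 1 window, and in 1.38% of all windows.

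Among the lamins, Lmnb1, which encodes lamin B1, differed most. Its level was 14.4 FPKM in dKO, 5.97 FPKM in G3 Terc-/-, 30.7 FPKM in Gadd45-/- and 34.0 FPKM in wild type, or about 756, 311, 1616 and 1752 fragments. Both G3 libraries lay well under both Terc-proficient ones, and G3 Terc-/- was lowest. The level in G3 Terc-/- was 5.69-fold lower than in wild type, a log2 ratio of -2.51 with a 95% interval of -2.69 to -2.33. These intervals are exact binomial ones on estimated fragments and cover counting error only, not the spread between cultures. Only 0.509% of the 11589 symbols had a lower difference than Lmnb1 in this comparison. In percentile rank of level among those symbols, Lmnb1 stood at 58.7 in dKO, 31.1 in G3 Terc-/-, 77.2 in Gadd45-/- and 79.1 in wild type.

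In the library labelled dKO, Lmnb1 was 2.41-fold higher than in G3 Terc-/- (log2 ratio 1.27, interval 1.07 to 1.46) and 2.37-fold lower than in wild type. On the log2(FPKM + 1) scale its difference from G3 Terc-/- equalled 49.0% of the gap between G3 Terc-/- and wild type, figures that share the G3 Terc-/- library. The level in Gadd45-/- was 0.904 of that in wild type (log2 ratio -0.15, interval -0.24 to -0.05).

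Lmnb2, which encodes lamin B2, was less abundant and moved less, at 6.69 FPKM in dKO, 4.29 FPKM in G3 Terc-/-, 11.3 FPKM in Gadd45-/- and 10.3 FPKM in wild type. The G3 libraries were again below the others. The G3 Terc-/- level was 2.39-fold lower than in wild type, with a difference of -1.09 that narrowly passed the size rule as lower (log2 ratio -1.26, interval -1.47 to -1.05). In dKO it was 1.56-fold higher than in G3 Terc-/-, within the size rule. The Gadd45-/- level was 1.10 times that of wild type, and the counting interval of its log2 ratio, -0.02 to 0.29, included 0.

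Lmna, from which lamins A and C are spliced, was the most abundant of the 10 genes at 327 FPKM in dKO, 251 FPKM in G3 Terc-/-, 480 FPKM in Gadd45-/- and 446 FPKM in wild type. It held the same order of libraries as Lmnb2. Its difference between G3 Terc-/- and wild type was -0.83, within the size rule, and 8.97% of measured symbols had a lower one. A single value per gene does not separate the lamin A and lamin C transcripts.

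Because the lamins differed unequally, their proportions within a library differed too, and such a ratio does not depend on the library's scale. Per unit length, Lmna exceeded Lmnb1 22.8-fold in dKO, 42.1-fold in G3 Terc-/-, 15.6-fold in Gadd45-/- and 13.1-fold in wild type. The library labelled G3 Terc-/- thus had the lowest share of lamin B1 transcript relative to lamin A/C. Lmna made up 93.9% of the summed lamin FPKM in dKO, 96.1% in G3 Terc-/-, 92.0% in Gadd45-/- and 91.0% in wild type. The ratio of Lmnb1 to Lmnb2 was 2.15 in dKO, 1.39 in G3 Terc-/-, 2.73 in Gadd45-/- and 3.31 in wild type, so the B-type lamins came closest to each other in G3 Terc-/-.

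**Figure D2:**
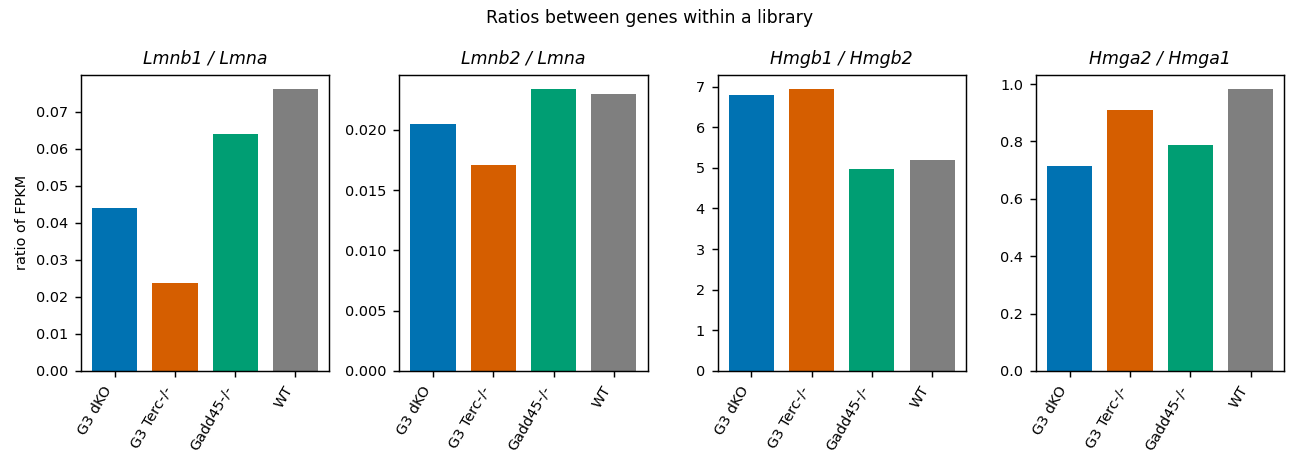
Ratios of FPKM between paired genes (bars, axis from 0) in each library, 1 library per genotype as labelled. Lmnb1 over Lmna is lowest in G3 Terc-/-, and Hmgb1 over Hmgb2 is 6.79 and 6.95 in the G3 libraries against 4.97 and 5.20 in the others.

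The inner membrane genes split. Lbr encodes the lamin B receptor, a membrane protein that binds B-type lamins and heterochromatin and also has sterol reductase activity. It was measured at 8.25 FPKM in dKO, 5.16 FPKM in G3 Terc-/-, 15.8 FPKM in Gadd45-/- and 17.5 FPKM in wild type. The G3 Terc-/- level was 3.39-fold lower than wild type (log2 ratio -1.76, interval -1.94 to -1.58), and the dKO level was 1.60-fold higher than that of G3 Terc-/- (interval of the log2 ratio 0.47 to 0.87).

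Tmpo encodes the lamina-associated LAP2 proteins, whose isoforms bind chromatin and either B-type or A-type lamins. Its levels were 18.2 FPKM in dKO, 13.7 FPKM in G3 Terc-/-, 37.8 FPKM in Gadd45-/- and 42.3 FPKM in wild type. Each G3 library was closer to the other than to the Terc-proficient pair. Tmpo was 3.10-fold lower in G3 Terc-/- than in wild type (log2 ratio -1.63, interval -1.78 to -1.48). In dKO it was 1.33-fold higher than in G3 Terc-/-, a step equal to 24.9% of the log2(FPKM + 1) gap to wild type, against 49.0% for Lmnb1.

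Emd encodes emerin, a LEM-domain protein that binds lamin A, and lies on the X chromosome. It stood at 70.1 FPKM in dKO, 55.1 FPKM in G3 Terc-/-, 66.8 FPKM in Gadd45-/- and 66.1 FPKM in wild type. The range across libraries was 1.27-fold, the smallest of the 10 genes. The G3 Terc-/- level was 1.20-fold lower than wild type, a log2 ratio of -0.26 with an interval of -0.36 to -0.16, so it exceeded counting error while 31.9% of measured symbols had a lower difference. In the library with Y-linked transcripts Emd differed from wild type by a log2 ratio of 0.02, with an interval of -0.08 to 0.11 that included 0.

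Of the HMG genes, the HMGB pair differed most. Hmgb2, which encodes a chromatin protein high in dividing cells, stood at 11.3 FPKM in dKO, 7.29 FPKM in G3 Terc-/-, 28.8 FPKM in Gadd45-/- and 31.1 FPKM in wild type, or about 547, 349, 1390 and 1473 fragments. The G3 libraries were well separated from the other pair. Hmgb2 was 4.27-fold lower in G3 Terc-/- than in wild type (log2 ratio -2.09, interval -2.26 to -1.92), with 1.04% of measured symbols lower. In dKO it was 1.55-fold higher than in G3 Terc-/- (log2 ratio 0.63, interval 0.44 to 0.83), and it remained 2.75-fold lower than wild type, the largest of the 10 differences between those libraries.

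Hmgb1, the abundant family member that is also released from cells as a danger signal, was measured at 76.9 FPKM in dKO, 50.7 FPKM in G3 Terc-/-, 143 FPKM in Gadd45-/- and 162 FPKM in wild type. It was 3.19-fold lower in G3 Terc-/- than in wild type (log2 ratio -1.67, interval -1.75 to -1.60) and 1.52-fold higher in dKO than in G3 Terc-/- (interval of the log2 ratio 0.51 to 0.69). Hmgb1 has many processed copies in the mouse genome, so its value is uncertain, although the listed copy Hmgb1-rs17 stayed at 0.29 FPKM or less. Within a library Hmgb1 exceeded Hmgb2 6.79-fold in dKO, 6.95-fold in G3 Terc-/-, 4.97-fold in Gadd45-/- and 5.20-fold in wild type.

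The HMGA genes lay within the size rule in all 5 comparisons. Hmga2, which encodes an AT-hook protein of embryonic and proliferating cells, stood at 54.3 FPKM in dKO, 58.8 FPKM in G3 Terc-/-, 98.6 FPKM in Gadd45-/- and 87.7 FPKM in wild type. Alone of the 10 genes it was lowest in dKO, 1.08-fold lower than in G3 Terc-/- (log2 ratio -0.12, interval -0.18 to -0.05). The G3 Terc-/- level was 1.49-fold lower than wild type.

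Hmga1, its relative, stood at 75.8 FPKM in dKO, 64.8 FPKM in G3 Terc-/-, 125 FPKM in Gadd45-/- and 89.2 FPKM in wild type. It was the gene that differed most between the Terc-proficient libraries, 1.41-fold higher in Gadd45-/- than in wild type. As for Hmgb1, its value is uncertain where fragments fit similar sequence elsewhere. The G3 Terc-/- level was 0.726 of that in wild type (log2 ratio -0.46, interval -0.55 to -0.37), and the dKO level was 1.17 times that in G3 Terc-/- (log2 ratio 0.23, interval 0.14 to 0.32).

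**Figure D3:**
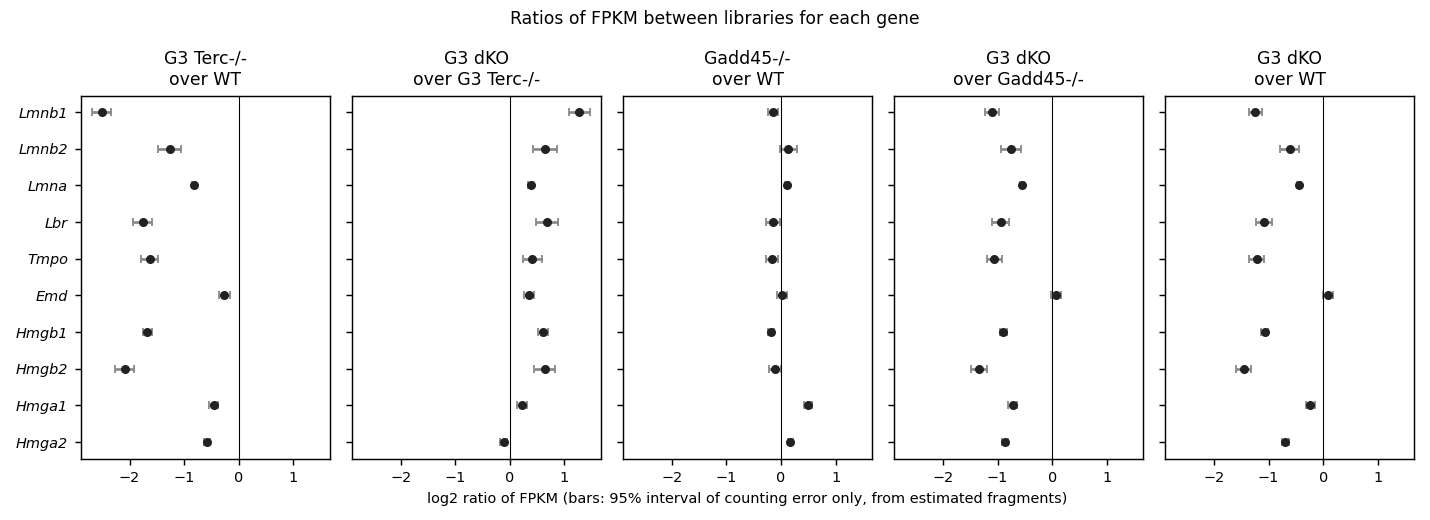
Log2 ratio of FPKM for each gene in 5 comparisons of single libraries, first-named over second, with 95% intervals of counting error only. G3 Terc-/- over WT runs from -2.51 for Lmnb1 to -0.26 for Emd, and Gadd45-/- over WT stays between -0.18 and 0.49.

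The library labelled dKO compared with G3 Terc-/- asks what the Gadd45-/- label goes with in G3 cells. Of the 10 genes 9 had a positive difference, the exception being Hmga2, and 1 was higher and none lower by the size rule. Over all symbols 0.849% were higher and 2.79% lower (1.51% and 4.78% of measured symbols). The median difference was 0.46 for the 10 genes and -0.031 for measured symbols. With a rule of 1.5-fold on FPKM + 1, 3 genes were higher: Lmnb1, Hmgb1 and, narrowly at 0.586, Lbr. By that rule 3.52% of all symbols were higher (6.16% of measured symbols). Lmnb2 and Hmgb2 did not pass it, though their ratios of FPKM were 1.56 and 1.55. Besides Lmnb1 the differences ranged from -0.11 for Hmga2 to 0.59 for Hmgb1 and Lbr.

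**Figure D4:**
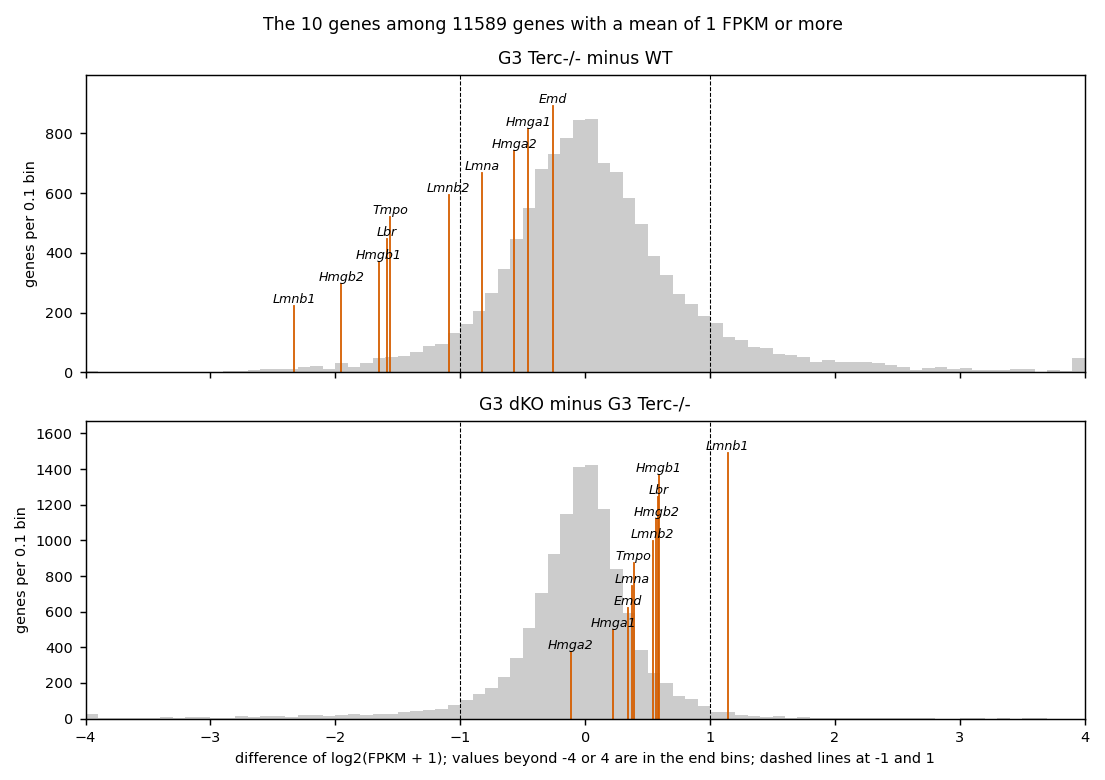
Histograms of the difference of log2(FPKM + 1) over the 11589 symbols with a mean of 1 FPKM or more, with the 10 genes as orange lines whose height carries no value. In G3 Terc-/- minus WT 6 lines lie left of -1, and in G3 dKO minus G3 Terc-/- Lmnb1 alone lies right of 1.

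In Terc-proficient cells the library labelled Gadd45-/- was close to wild type. None of the 10 genes passed the size rule, where 0.178% of all symbols were higher and 0.138% lower (0.319% and 0.198% of measured symbols). There were 5 positive and 5 negative differences, from -0.18 for Hmgb1 to 0.49 for Hmga1, with a median of -0.046 against -0.027 for measured symbols. Lmnb1, Lbr, Tmpo, Hmgb1 and Hmgb2 were each slightly lower and the other 5 genes slightly higher than in wild type.

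The library labelled dKO compared with Gadd45-/- sets G3 Terc deficiency against telomerase proficiency under the Gadd45-/- label. Here 3 genes were lower, Hmgb2 (-1.27), Lmnb1 (-1.05) and Tmpo (-1.02), and none higher. Over all symbols 1.3% were lower and 1.33% higher (2.36% and 2.49% of measured symbols). With a rule of 1.5-fold on FPKM + 1, 8 genes were lower, where 4.37% of all symbols were (7.83% of measured symbols). Under median-of-ratios or quantile scaling Tmpo no longer passed, at -0.998 and -0.95. Hmga2 had a larger difference in this comparison (-0.85) than in G3 Terc-/- minus wild type (-0.57), whereas that of Lmnb1 was smaller (-1.05 and -2.33). Emd differed by 0.067. These comparisons use no library in common, and the difference between them was not tested.

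Compared with wild type, the library labelled dKO had 4 genes lower, Hmgb2 (-1.38), Lmnb1 (-1.19), Tmpo (-1.17) and Hmgb1 (-1.06), and none higher. Over all symbols 1.56% were lower and 2.02% higher (2.86% and 3.81% of measured symbols). Lbr lay at the edge of the rule at -0.999 and passed it, at -1.07, with a pseudocount of 0.1 FPKM. The median over the 10 genes was -0.84, and -0.043 over measured symbols.

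Proliferation genes moved alongside. In a mitotic list the median difference between G3 Terc-/- and wild type was -2.34, and all 18 genes passed the rule as lower. Between dKO and G3 Terc-/- the median was 1.11, and 13 of 18 passed as higher. Ccnb1, a mitotic cyclin, stood at 14.0 FPKM in dKO, 4.06 FPKM in G3 Terc-/-, 36.4 FPKM in Gadd45-/- and 36.5 FPKM in wild type. In bulk RNA fewer cells in cycle and less RNA per cell cannot be told apart, and the part of proliferation in the levels of the lamina and HMG genes was not tested. Between dKO and G3 Terc-/- 5 of 8 cell cycle inhibitor and senescence secretory genes were lower (median -2.11), and between G3 Terc-/- and wild type 6 of 8 were higher (median 3.04). Il6 stood at 4.77 FPKM in dKO, 40.2 FPKM in G3 Terc-/-, 2.097 FPKM in Gadd45-/- and 0.87 FPKM in wild type.

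The genes whose pattern over the 4 libraries lay closest to that of Lmnb1, by Euclidean distance of centred log2(FPKM + 1), were Ckap2l (0.050), Kif11 (0.061) and Racgap1 (0.061). For Hmgb2 they were Mcm2 (0.085), Ect2 (0.087) and Mcm7 (0.11), for Hmga2 D830031N03Rik (0.050), Peli2 (0.054) and D1Ertd622e (0.070), and for Lmna Mtr (0.055), Exosc2 (0.056) and Apba1 (0.061). Within a distance of 0.2 there were 19 symbols for Lmnb1, 18 for Hmgb2, 63 for Hmga2 and 276 for Lmna. The values were centred but not scaled, so this distance depends on the size of variation as well as on shape. Highest over lowest level was 5.69 for Lmnb1, 4.27 for Hmgb2, 1.82 for Hmga2 and 1.91 for Lmna, so these numbers of neighbours do not compare how shared the shapes are. Among the 10 genes themselves Lbr and Hmgb1 were closest (0.054), followed by Tmpo and Hmgb1 (0.15). With 4 libraries these distances are a description only.

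Among other HMG genes, a pair differed as much as Lmnb1. Of 11 measured genes in that list 2, Hmgn2 (-2.47) and Hmgb3 (-2.42), were lower in G3 Terc-/- than in wild type and none higher, where the median was -0.33. Hmgn2, which binds nucleosomes, stood at 59.3 FPKM in dKO, 23.8 FPKM in G3 Terc-/-, 123 FPKM in Gadd45-/- and 137 FPKM in wild type, and was the 1 gene of the list higher in dKO than in G3 Terc-/- by the size rule. Hmgb3, the X-linked HMGB family member, stood at 6.14 FPKM in dKO, 3.91 FPKM in G3 Terc-/-, 24.4 FPKM in Gadd45-/- and 25.2 FPKM in wild type. The sum of Hmgb1, Hmgb2 and Hmgb3 was 94.4 FPKM in dKO, 61.9 FPKM in G3 Terc-/-, 196 FPKM in Gadd45-/- and 218 FPKM in wild type. Ubtf, a nucleolar transcription factor with HMG boxes (20.2, 16.6, 32.0 and 32.3 FPKM in the same order), and the nucleosome binder Hmgn1 (230, 168, 318 and 318 FPKM) were lower without passing the rule.

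Other inner membrane genes differed less. Of 13 measured inner membrane and lamina-binding genes none passed the size rule in any of the 5 comparisons, and their median difference was -0.10 between G3 Terc-/- and wild type. The largest was that of Banf1, which links chromatin to LEM-domain proteins, at 110 FPKM in dKO and 91.1 FPKM in G3 Terc-/-, against 169 FPKM in Gadd45-/- and 173 FPKM in wild type. Nrm (nurim) stood at 4.26 FPKM in dKO, 3.74 FPKM in G3 Terc-/-, 6.31 FPKM in Gadd45-/- and 6.87 FPKM in wild type, while Tmem38a and Tor1aip2 lay in the opposite direction, with differences of 0.74 and 0.50 between G3 Terc-/- and wild type. Between dKO and G3 Terc-/- the largest differences were -0.48 for Tor1aip2, 0.36 for Prr14, which tethers heterochromatin to the lamina, and 0.27 for Banf1.

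Of 5 enzymes that process prelamins none passed the rule in any comparison, and their median difference between G3 Terc-/- and wild type was 0.17. Icmt, which methylates the farnesylated end of lamins, had the largest (0.64), at 33.8 FPKM in dKO, 39.0 FPKM in G3 Terc-/-, 26.8 FPKM in Gadd45-/- and 24.6 FPKM in wild type. Zmpste24, the protease that matures lamin A, stood at 29.6, 33.7, 29.9 and 29.2 FPKM in that order, and the farnesyltransferase subunit gene Fnta at 33.7, 35.7, 30.8 and 31.5 FPKM. KASH genes encode proteins that join the lamina to the cytoskeleton. Of 4 listed, 3 were matched to a symbol, so the level of the remaining one is unknown. Only Syne2 was measured, at 0.89 FPKM in dKO, 0.76 FPKM in G3 Terc-/-, 2.05 FPKM in Gadd45-/- and 3.10 FPKM in wild type. It passed the rule as lower than wild type in dKO (-1.11) and in G3 Terc-/- (-1.22).

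Nuclear pore genes leaned the same way as the lamins but by less. Of 27 measured, 24 had a negative difference between G3 Terc-/- and wild type and 2 passed the rule. The median was -0.44. Nup188 stood at 11.96 FPKM in dKO, 8.95 FPKM in G3 Terc-/-, 19.1 FPKM in Gadd45-/- and 19.9 FPKM in wild type, and Nup107, of the pore's Y-shaped scaffold, at 13.4, 10.5, 20.7 and 22.6 FPKM. Between dKO and G3 Terc-/- none of the 27 passed the rule, and the median was 0.075. Aaas (24.7 against 38.9 FPKM) and Nup35 (4.74 against 7.80 FPKM) were lower there, within the rule.

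**Figure D5:**
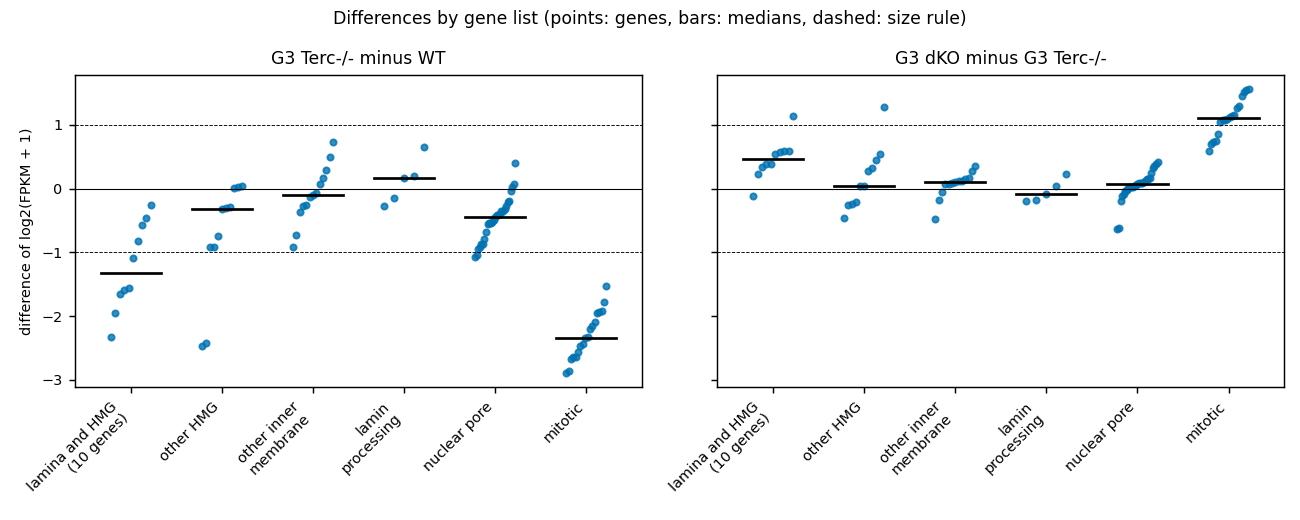
Difference of log2(FPKM + 1) for each measured gene (points) by list, with medians as bars and the size rule dashed, for G3 Terc-/- minus WT and G3 dKO minus G3 Terc-/-. The 10 lamina and HMG genes have medians of -1.33 and 0.46, between those of nuclear pore genes (-0.44 and 0.075) and mitotic genes (-2.34 and 1.11).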

How the data were processed

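Per the labels' protocols, RNA selected by oligo(dT) from each of 4 fibroblast cultures was made into 1 library. The deposited values are FPKM, fragment numbers scaled to transcript length and library size, with 1 value per gene symbol. TopHat2 2.1.1, Cufflinks 2.2.1 and build mm9 are named in the submitters' processing notes, without roles. The annotation, strand setting and filters are not given in the sources used here. Fragments of near-identical gene copies may be divided between them.

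The 10 genes and the 10 gene lists and 8 marker lists were chosen with earlier results of these data known, so they support nothing independently. From each list, up to 4 measured genes with the largest difference between the libraries labelled G3 Terc-/- and wild type and up to 3 between dKO and G3 Terc-/- were eligible to be named, as were the 3 symbols nearest in pattern to Lmnb1, Hmgb2, Hmga2 and Lmna. Col1a1, Pdgfra, Fn1, Pecam1, Myf5, Hbb-b1, Epcam, Cdh1, Krt19, Krt8, Krt18, Ptprc, Lyz2, Cd68, Itgam, Tubb3, Nes and Alb are named outside this rule, chosen after their values were seen. So are the gene copies Hmgb1-rs17 and Hmga2-ps1.

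Of 23235 symbols 739 of short non-coding RNA were left out and 22496 compared. Symbols with a mean of 1 FPKM or more (11589) are called measured. Listed symbols were matched through RefSeq synonyms. The difference of log2(FPKM + 1) was taken with a pseudocount of 1 FPKM, which understates changes of low genes. No p-value was computed, since each genotype had 1 library. Depth was estimated at the commonest value of 1 fragment among FPKM values up to 0.05 of single-transcript genes of 1500 to 8000 nt, less a fragment length of 200 nt. Between 75.5% and 81.8% of those values lay within 0.1 of a whole fragment, which is no independent check. Fragments per gene used the median length of its RefSeq-paired GENCODE M21 transcripts and are approximate. The size rule and the counting interval were tested on simulated counts of known depth and transcript length. The estimates of depth and of fragments per gene were not tested. Python 3.11.15, numpy 2.4.6, pandas 2.3.3 and scipy 1.17.1 were used. Alternatives were a pseudocount of 0.1 FPKM, median-of-ratios size factors, quantile normalization, a 1.5-fold rule on FPKM + 1 and, for counts over all symbols, a mean of 1 FPKM or more.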

Additional observations from a re-analysis of the deposited data

Results flagged for a closer look

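For 6 of the 10 genes the library with the Gadd45-/- label differed from its counterpart in opposite directions in G3 and in Terc-proficient cells. The double difference, dKO minus G3 Terc-/- less Gadd45-/- minus wild type on the log2(FPKM + 1) scale, was 1.28 for Lmnb1, 0.77 for Hmgb1, 0.72 for Lbr, 0.68 for Hmgb2 and 0.55 for Tmpo. These 5 genes were higher in dKO than in G3 Terc-/- and slightly lower in Gadd45-/- than in wild type. For Hmga2 the directions were the other way round, with a double difference of -0.28. The difference was not tested, since 1 library per genotype leaves no error to set it against, and the Terc-proficient differences were all 0.18 or less in size. The share of all symbols with opposite directions was not computed, so the count of genes has no background. Gadd45-/- minus wild type also sets a library with Y-linked transcripts against one without, so sex and label cannot be told apart in the double difference.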

How the results depend on the processing

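No paired analysis was possible because each genotype had 1 library, and no library could be left out. A pseudocount of 0.1 FPKM, size factors (0.977 to 1.01) and quantile normalization gave 50 differences each for the 10 genes. None changed sign, the largest shifts were 0.16, 0.054 and 0.14, and 1 difference under each crossed the size rule (Lbr or Tmpo, as stated above). Shifts were larger than counting error for 3 differences under size factors and 2 under quantile normalization, all of them of Lmna. With a rule of 1.5-fold on FPKM + 1, 3 of the 10 genes were higher in dKO than in G3 Terc-/- in place of 1. By the same rule 8 were lower in dKO than in Gadd45-/- in place of 3. Over all symbols, a pseudocount of 0.1 FPKM in place of 1 gave 2705 higher and 1439 lower between G3 Terc-/- and wild type in place of 1282 and 749. It gave 732 and 1624 between dKO and G3 Terc-/- in place of 191 and 628, and 371 and 447 between Gadd45-/- and wild type in place of 40 and 31. For dKO it gave 1241 and 791 against Gadd45-/- in place of 300 and 292, and 1443 and 998 against wild type in place of 455 and 351. Quantile normalization gave 290 higher between dKO and G3 Terc-/- in place of 191. The spread between cultures is unknown, and depth limits Lmnb2, Lmnb1 and Lbr most, at about 268, 311 and 337 fragments in G3 Terc-/-.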

Other observations

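Genes for receptors of extracellular HMGB1 and for RNA-binding partners of the let-7 pathway that restrains Hmga2 were looked at beside the 10 genes. Of 4 measured receptor genes 2 were higher in G3 Terc-/- than in wild type by the size rule and none lower. Tlr2, a Toll-like receptor, stood at 0.70 FPKM in dKO, 5.83 FPKM in G3 Terc-/-, 1.25 FPKM in Gadd45-/- and 1.31 FPKM in wild type, and Cd24a, a surface glycoprotein, at 50.6, 37.5, 20.4 and 17.3 FPKM. Tlr2 was thus highest in G3 Terc-/- and Cd24a highest in dKO. Havcr2 (2.53, 2.19, 1.49 and 0.67 FPKM in the same order) and Tlr4 (2.96, 3.40, 1.87 and 1.67 FPKM) had positive differences between G3 Terc-/- and wild type within the rule.

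Lin28a was listed at 0 in every library, and Lin28b was at 0.0482 FPKM or less. The mRNA-binding genes Igf2bp1 (6.01, 5.74, 7.95 and 8.89 FPKM), Igf2bp2 (29.9, 30.2, 36.8 and 38.0 FPKM) and Igf2bp3 (13.1, 9.98, 12.8 and 13.3 FPKM) were lower in G3 Terc-/- than in wild type, none by the size rule. The processed copy Hmga2-ps1 stood at 2.61 FPKM in dKO, 7.76 FPKM in G3 Terc-/-, 5.48 FPKM in Gadd45-/- and 6.47 FPKM in wild type.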
